A study of Homo sapiens with 9 samples.

Results

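The 39 genes described here are 20 cytosolic aminoacyl-tRNA synthetases, 16 mitochondrial synthetases, whose symbols end in ARS2, and the 3 scaffold genes AIMP1, AIMP2 and EEF1E1. They were taken by symbol from a table of 58347 genes, and all 39 were found in it and were tested. The symbols are those of GENCODE 29, so AARS, GARS and the like are written AARS1 and GARS1 in newer releases.

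RNA was sequenced from 9 libraries of K562, a human erythroleukaemia cell line. All of them came from K562-FIRE cells, which express dCas9 (EF1a promoter, Blast marker), MS2-Fkbp(1x) (EF1a promoter, Hygro marker) and SS18-Frb (EF1a promoter, Puro marker). The HBG1 sgRNA libraries carried a guide to the HBG1 promoter and were made after 24 h with DMSO (n = 3) or with 10 nM rapamycin (n = 3). The non-targeting sgRNA libraries carried a guide with no target and were made after the same 24 h with DMSO (n = 1, replicate 2) or with 10 nM rapamycin (n = 2, replicates 1 and 2). Rapamycin joins Fkbp to Frb in this system, and it also inhibits mTORC1 in cells with either guide. No group without the fusions was analysed here, and the labels do not say whether the line is 1 clone. Nothing in the labels says that replicates were separate cultures, so p-values measure only the spread between these libraries, which may be technical.

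Each synthetase joins 1 amino acid to its tRNA, the step that sets which amino acid is placed at a codon. Human cells make most cytosolic and mitochondrial synthetases from separate nuclear genes, while GARS and KARS each give both forms, EPRS charges both glutamate and proline tRNAs, and mitochondria have no glutamine enzyme of their own. Several cytosolic enzymes sit in the multi-synthetase complex, held by the AIMP1, AIMP2 and EEF1E1 proteins. The transcription factor ATF4 is known to drive many cytosolic synthetase genes, both when uncharged tRNA activates the kinase GCN2 (gene EIF2AK4) and downstream of mTORC1, which rapamycin inhibits.

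ATF4 binds with a C/EBP partner to elements whose core is TGATGNAA (TTNCATCA on the other strand), so promoters were searched for these letters on both strands. RefSeq promoter windows (GRCh38.p14, 250 bases before to 50 bases after each start) were found for 33 of the 39 genes. The core was present in 7 of 16 cytosolic promoters (43.8%), in 1 of 14 mitochondrial promoters (7.14%) and in 0 of 3 scaffold promoters. Among all genes with such a window it was present in 1217 of 27305 (4.46%). The stretches around the core in these 7 cytosolic genes and 1 mitochondrial gene are printed here 5′ to 3′ along the gene's strand, with the core in capitals, so that the shared letters can be compared.
AARS, chr16:70289646-70289733, minus strand: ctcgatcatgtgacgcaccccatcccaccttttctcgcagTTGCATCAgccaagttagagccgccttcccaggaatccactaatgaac
CARS, chr11:3057418-3057465, minus strand: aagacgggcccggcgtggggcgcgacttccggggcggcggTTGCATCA
GARS, chr7:30594834-30594863, plus strand: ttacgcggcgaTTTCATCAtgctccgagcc
IARS, chr9:92293698-92293750, minus strand: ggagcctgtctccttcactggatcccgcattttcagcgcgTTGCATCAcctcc
MARS, chr12:57488024-57488071, plus strand: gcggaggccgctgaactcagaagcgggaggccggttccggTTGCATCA
NARS, chr18:57621815-57621862, minus strand: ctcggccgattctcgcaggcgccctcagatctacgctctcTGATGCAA
TARS, chr5:33440927-33440974, plus strand: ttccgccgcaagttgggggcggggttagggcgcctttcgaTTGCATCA
YARS2, chr12:32756047-32756134, minus strand: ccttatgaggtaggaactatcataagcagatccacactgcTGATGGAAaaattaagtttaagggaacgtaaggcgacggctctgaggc
In 5 of the cytosolic genes (AARS, CARS, IARS, MARS and TARS) the matched letters are TTGCATCA, and NARS holds the same 8 letters on the opposite strand. In CARS, IARS, MARS, NARS and TARS the match lies close to or across the annotated start, and its first base is at -33 in GARS, -187 in AARS and -197 in YARS2. With only the bases before each window's own start searched, 3 cytosolic genes and 1 mitochondrial gene held a match, against 3.89% of all genes. GARS is among them by its second window. Windows were not found for DARS, LARS, VARS, YARS, AARS2 and VARS2. A match describes the letters in the window, and binding was not measured here.

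The libraries held 19797409 to 31619671 counts, and the lowest count of any of the 39 genes in any library was 112. Levels below are CPM, the counts of a gene relative to the library's total after TMM scaling, and log2 differences or fold changes are those of rapamycin over DMSO from edgeR's quasi-likelihood fit. A gene was called at a Benjamini-Hochberg adjusted p under 0.05 over the 23675 genes tested. The erythroid markers GATA1, KLF1, TAL1, HBE1 and HBZ were at 124 CPM or more in every library, while 4 markers of other cell types (CD3E, CD14, ALB and COL1A1) reached at most 2.20 CPM. The summed level of the other-type markers that passed the filter, CD14 and COL1A1, was 1.82 to 3.07 CPM with DMSO and 1.57 to 1.85 CPM with rapamycin among the HBG1 sgRNA libraries, and 1.85 and 1.38 to 1.73 CPM among the non-targeting ones. CD3E and ALB had at most 7 and 5 counts in any library and were not tested. GATA1 was called higher with rapamycin under the HBG1 sgRNA (0.31, adjusted p 0.0326), and HBE1 (0.16, adjusted p 0.0423) and HBZ (0.27, adjusted p 0.00294) passed as higher with the replicate number as a block, while KLF1 (0.05) and TAL1 (0.04) were not called. Between guides under rapamycin HBE1 was called higher with the HBG1 sgRNA in edgeR's test (log2 difference 1.89, adjusted p 0.0122). Its mean there was 9945 CPM with the HBG1 sgRNA and 2690 CPM with the non-targeting sgRNA. The part of these markers in the differences of the 39 genes was not tested. Both replicate 1 libraries with the HBG1 sgRNA stood apart from replicates 2 and 3, with a chi-square per degree of freedom of 16.5 to 18.6 against them, where replicates 2 and 3 gave 4.74 with DMSO and 7.91 with rapamycin. HBG1, the recruitment target, was at 296 ± 150 CPM with DMSO and rose to 1930 ± 469 CPM with rapamycin under its own guide (SD, n = 3 each), and it stood at 8233 to 8944 CPM in the non-targeting libraries.

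Transcripts of most cytosolic synthetases were lower after rapamycin. With the HBG1 sgRNA 36 of the 39 genes had a log2 fold change below 0, as had 47.7% of all genes tested. Of these 36, 19 were cytosolic. In the test 15 of the 20 cytosolic genes were called lower and 0 higher, where 4.05% of all genes tested were called lower and 2.75% higher. Their median log2 fold change was -0.34, with a range of -0.82 to 0.14, and the median over all genes tested was 0.02. Of the 16 mitochondrial genes 2 were called lower and 0 higher, with a median of -0.18, and of the 3 scaffold genes 0 were called, with a median of -0.06. Without both replicate 1 libraries, and with the block, 14 cytosolic, 2 mitochondrial and 1 scaffold gene were called. The share of all genes called in that fit is not given here. The 4.05% is not its match, since the block with replicate 1 included called 9.62% of all genes lower. In bulk RNA, fewer cells that express a gene and less of its RNA per cell cannot be told apart. In the main test 6.8% of all genes were called in either direction. Among the 11548 more abundant genes (mean log2 CPM 3 or higher), the range in which nearly all of the 39 lie, 8.08% were called lower.

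**Figure D1:**
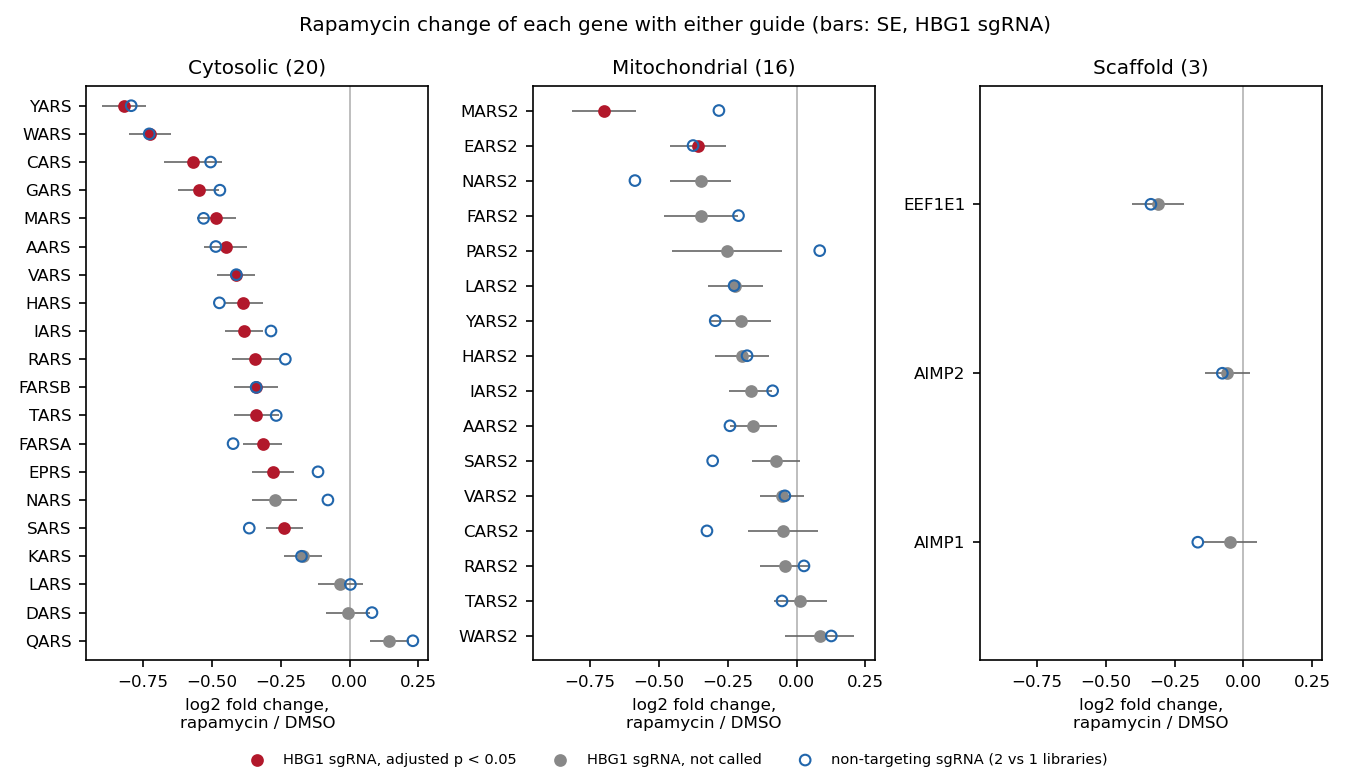
Each row is 1 gene and the horizontal axis is the log2 fold change of rapamycin over DMSO. Filled points are the HBG1 sgRNA (n = 3 against 3, bars are SE, red where called) and open circles the non-targeting sgRNA (n = 2 against 1); 15 of 20 cytosolic, 2 of 16 mitochondrial and 0 of 3 scaffold genes are red, and YARS and WARS lie farthest to the left with either guide.

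The lowest fold changes belonged to YARS and WARS, the enzymes for tyrosine and tryptophan. YARS (chromosome 1, 32775237 to 32818153, GRCh38) stood at 211, 195 and 203 CPM with DMSO and at 128, 112 and 106 CPM with rapamycin. Every rapamycin library was far below every DMSO library, and the log2 fold change was -0.82 (SE 0.0796, adjusted p 5.47e-05), a level that fell by 43.4%. WARS (chromosome 14, 100333788 to 100376805) stood at 140, 125 and 138 CPM with DMSO and at 86.2, 78.3 and 79.4 CPM with rapamycin. Its groups did not overlap either, and its log2 fold change was -0.72 (SE 0.0764, adjusted p 9.88e-05). Exons of WARS share 10.6% of their bases with other genes on the opposite strand, and the strand setting of the counting is not given.

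CARS, GARS and MARS charge cysteine, glycine and methionine tRNAs, and each holds the TGATGNAA core shown above. The windows of WARS, which differed more, held no core, and YARS had no window. CARS (chromosome 11, 3000922 to 3057613) stood at 85.5, 69.5 and 72.1 CPM with DMSO and at 59.0, 49.2 and 45.2 CPM with rapamycin, a log2 difference of -0.57 (SE 0.104, adjusted p 0.00416). GARS (chromosome 7, 30594681 to 30634033), which gives the cytosolic and the mitochondrial glycine enzyme, stood at 253, 233 and 237 CPM and at 180, 158 and 157 CPM, a log2 difference of -0.55 (SE 0.0751, adjusted p 0.000505). MARS (chromosome 12, 57475445 to 57517569) stood at 248, 229 and 242 CPM and at 175, 179 and 161 CPM, a log2 difference of -0.48 (SE 0.0708, adjusted p 0.000852). In each of these genes all rapamycin libraries were lower than all DMSO libraries. Exons of MARS share 13.3% of their bases with other genes, among them DDIT3 on the opposite strand, and the strand setting of the counting is not given in the sources used here.

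AARS and VARS, the alanine and valine enzymes, complete the 7 cytosolic genes with the largest differences. AARS (chromosome 16, 70252295 to 70289543) stood at 261, 243 and 256 CPM with DMSO and at 204, 182 and 170 CPM with rapamycin, a log2 difference of -0.45 (SE 0.0782, adjusted p 0.00285). VARS (chromosome 6, 31777518 to 31795953) stood at 559, 557 and 557 CPM and at 424, 441 and 393 CPM, a log2 difference of -0.41 (SE 0.0696, adjusted p 0.00231). Neither gene's groups overlapped, and VARS had the highest level per exon length of all 39 genes, at 91.7 CPM per kb with DMSO.

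The other cytosolic genes called lower were HARS (-0.39), IARS (-0.38), RARS (-0.34), FARSB (-0.34), TARS (-0.34), FARSA (-0.32), EPRS (-0.28) and SARS (-0.24), all as log2 fold changes. FARSA and FARSB, the 2 subunits of the phenylalanine enzyme, thus differed from DMSO by nearly the same amount. The 9 genes AARS, CARS, GARS, HARS, IARS, MARS, VARS, WARS and YARS stayed called under all 20 alternative analyses, whereas the calls of the weaker genes depended on the scaling, the filter or single libraries. With upper quartile scaling SARS (adjusted p 0.101) and EPRS (0.0858) were not called, nor were they with only the 6 HBG1 sgRNA libraries in the fit (0.0611 and 0.0682). SARS also lost its call with library totals as the scaling (0.0756) and with no filter (0.0642). Without rapamycin replicate 3 the calls of EPRS (adjusted p 0.126), SARS (0.107), RARS (0.0939), TARS (0.0903), FARSA (0.0808) and FARSB (0.0656) were lost, which left 9 cytosolic calls. Without DMSO replicate 1 those of EPRS (0.123), SARS (0.0940), RARS (0.0677), TARS (0.0617) and FARSB (0.0574) were lost, and without DMSO replicate 2 those of SARS (0.144), RARS (0.0926), FARSB (0.0729) and EPRS (0.0612). Without rapamycin replicate 2 the calls of EPRS (0.115), SARS (0.0937), RARS (0.0755) and TARS (0.0575) were lost. SARS also lost its call without each of the other HBG1 sgRNA libraries, at 0.103 (DMSO replicate 3) and 0.0562 (rapamycin replicate 1), and EPRS without DMSO replicate 3 (0.104). Both lost it without either non-targeting rapamycin library, at 0.0634 and 0.0630 for SARS and 0.0620 and 0.0619 for EPRS.

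NARS, KARS, LARS, DARS and QARS were not called. NARS, the asparagine enzyme, was lower in every rapamycin library than in any DMSO library, at a log2 fold change of -0.27 (adjusted p 0.0557), and passed with the replicate number as a block (adjusted p 0.00574), where 17.1% of all genes were called. It also passed with DESeq2 (0.0182), limma voom (0.0392), no filter (0.0223) and the additive model over both guides (0.0434). Without DMSO replicate 3 (0.0473) or rapamycin replicate 1 (0.0342) NARS passed as well, and it was not called under 13 of 20 alternatives. KARS, the lysine enzyme, had a log2 fold change of -0.17 (adjusted p 0.172). LARS stood at 221, 198 and 202 CPM with DMSO and at 225, 185 and 197 CPM with rapamycin, and DARS at 141, 125 and 126 CPM and at 142, 121 and 128 CPM. The groups of these leucine and aspartate enzymes overlapped almost fully, and their log2 fold changes of -0.03 (SE 0.0812) and -0.01 (SE 0.0796) both turned positive, at 0.01 and 0.03, with upper quartile scaling. QARS, the glutamine enzyme, stood at 172, 153 and 162 CPM with DMSO and at 181, 180 and 177 CPM with rapamycin. It was the 1 gene of the 39 whose rapamycin libraries all lay above its DMSO libraries (0.14, adjusted p 0.251), as they did for 12.2% of all genes tested.

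**Figure D2:**
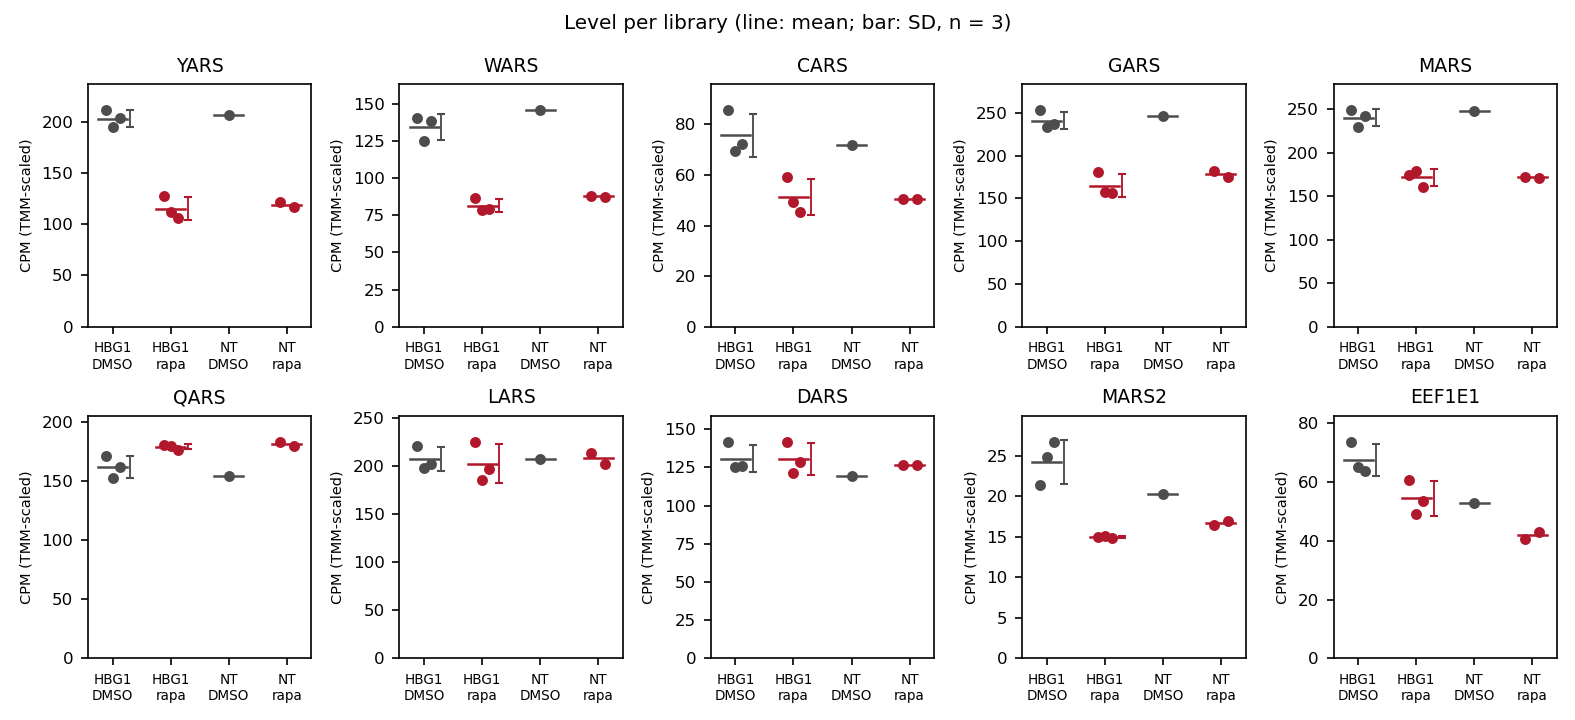
Level of 10 genes in each library, in TMM-scaled CPM from 0, by group (points are libraries, lines are means, bars are SD where n = 3). YARS, WARS, CARS, GARS, MARS and MARS2 are lower with rapamycin in all libraries with the HBG1 sgRNA, LARS and DARS overlap, and the QARS libraries with rapamycin lie above those with DMSO.

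Counting by overlap gave a like picture. In 17 of the 20 cytosolic genes every rapamycin library was below every DMSO library, against 13.1% of all genes tested, and the same held for 7 of 16 mitochondrial genes and for 1 of 3 scaffold genes. Within the same-numbered pairs of libraries, 17 cytosolic, 10 mitochondrial and 1 scaffold gene were lower with rapamycin in 3 of 3 pairs. The share of all genes lower in 3 of 3 pairs was not computed. The 13.1% is for no overlap, a stricter criterion, and is not the match for these counts. Precision differed between the compartments, with a median SE of 0.0768 for cytosolic and 0.101 for mitochondrial genes, so a difference of a given size was harder to call among the mitochondrial genes.

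Among the mitochondrial enzymes, MARS2 differed most. MARS2 (chromosome 2, 197705369 to 197708387), the mitochondrial methionine enzyme, stood at 21.4, 24.8 and 26.7 CPM with DMSO and at 14.9, 15.1 and 14.8 CPM with rapamycin. Its groups did not overlap, its log2 fold change was -0.70 (SE 0.115, adjusted p 0.00193), and it stayed called under all 20 alternatives. EARS2 (chromosome 16, 23522014 to 23557731), which loads glutamate also onto the mitochondrial glutamine tRNA, stood at 37.1, 37.9 and 37.4 CPM and at 33.5, 26.4 and 27.8 CPM. Its log2 fold change was -0.36 (SE 0.102, adjusted p 0.0444), and it lost its call under 10 of 20 alternatives, with adjusted p of up to 0.162 without rapamycin replicate 3. Leaving out rapamycin replicate 2 (0.134), any DMSO library (0.0708, 0.139 and 0.113 for replicates 1, 2 and 3) or either non-targeting rapamycin library (0.0633 and 0.0630) also ended that call.

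NARS2 and FARS2 had the next largest differences and were not called. NARS2 (chromosome 11, 78435961 to 78574874) stood at 23.8, 25.3 and 22.6 CPM with DMSO and at 17.03, 21.1 and 18.3 CPM with rapamycin, a log2 difference of -0.35 (SE 0.111, adjusted p 0.0740) that passed with the replicate block (adjusted p 0.0245) and without rapamycin replicate 2 (0.0454). FARS2 (chromosome 6, 5261044 to 5829192) stood at 17.3, 14.9 and 13.6 CPM and at 11.97, 11.3 and 12.8 CPM, also -0.35 (SE 0.133, adjusted p 0.140). NARS2 also passed with DESeq2 (0.0484) and the additive model over both guides (0.00478), and was not called under 16 of 20 alternatives. In NARS2 and FARS2 the groups did not overlap. PARS2 (-0.25), LARS2 (-0.22), YARS2 (-0.20), IARS2 (-0.17), AARS2 (-0.16), SARS2 (-0.07), VARS2 (-0.05), CARS2 (-0.05), RARS2 (-0.04), TARS2 (0.01) and WARS2 (0.08) made up the rest, none of them called. SARS2 shares 57.0% of its exon bases with other genes, and VARS2 shares 22.0%, so their counts are less certain.

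HARS and HARS2 lie head to head on chromosome 5, at 140673904 to 140691862 on the minus strand and 140691426 to 140699318 on the plus strand. HARS stood at 95.4, 96.0 and 101 CPM with DMSO and at 75.2, 74.0 and 74.6 CPM with rapamycin, a log2 difference of -0.39 (SE 0.0712, adjusted p 0.00428). HARS2 stood at 33.4, 33.2 and 35.0 CPM and at 27.8, 33.1 and 27.8 CPM, a log2 difference of -0.20 (SE 0.0986, adjusted p 0.272). HARS was called and HARS2 was not, although the highest HARS2 library with rapamycin lay just under the lowest with DMSO. Their annotated exons overlap, and HARS2 shares 15.8% of its exon bases with HARS and ZMAT2.

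None of the 3 scaffold genes was called in the main test. EEF1E1 (chromosome 6, 8073360 to 8102578) stood at 73.6, 65.2 and 63.7 CPM with DMSO and at 60.8, 49.1 and 53.6 CPM with rapamycin. Its groups did not overlap, and its log2 fold change of -0.31 (SE 0.0936, adjusted p 0.0570) passed with the replicate block (adjusted p 0.00486), with DESeq2 (0.0250), with limma voom (0.0398) and without rapamycin replicate 1 (0.0154). It was the 1 scaffold gene with an unadjusted p under 0.05 in edgeR's test. AIMP2 (chromosome 7, 6009245 to 6023834) stood at 63.9, 59.1 and 54.9 CPM and at 59.6, 55.9 and 55.8 CPM, and AIMP1 (chromosome 4, 106315544 to 106349226) at 79.5, 70.5 and 62.1 CPM and at 75.1, 61.7 and 68.3 CPM. The groups of both overlapped, with log2 fold changes of -0.06 (SE 0.0834) and -0.05 (SE 0.0976). Exons of EEF1E1, AIMP2 and AIMP1 share 18.7%, 28.9% and 11.6% of their bases with other genes.

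Cytosolic and mitochondrial enzymes were next set against each other. The median log2 fold change of the cytosolic genes was lower than that of the mitochondrial genes by 0.16 (difference -0.16), and by same-numbered pair the difference was -0.14, -0.20 and -0.16. The summed level of the 20 cytosolic genes was 4594, 4280 and 4348 CPM with DMSO and 3669, 3431 and 3374 CPM with rapamycin, and the mean changed by -20.8%. The summed level of the 16 mitochondrial genes was 756, 762 and 765 CPM and 677, 706 and 670 CPM, and the mean changed by -10.0%. Both sums were lower in every rapamycin library than in any DMSO library, and the replicate 1 libraries had the highest cytosolic sum of their groups. The ratio of the cytosolic to the mitochondrial sum went from 5.79 ± 0.248 to 5.10 ± 0.287 (SD, n = 3 each), a change of -11.9%. Since CPM is not per length, these sums weigh long and abundant transcripts most, and VARS alone held 558 CPM of the cytosolic sum with DMSO.

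**Figure D3:**
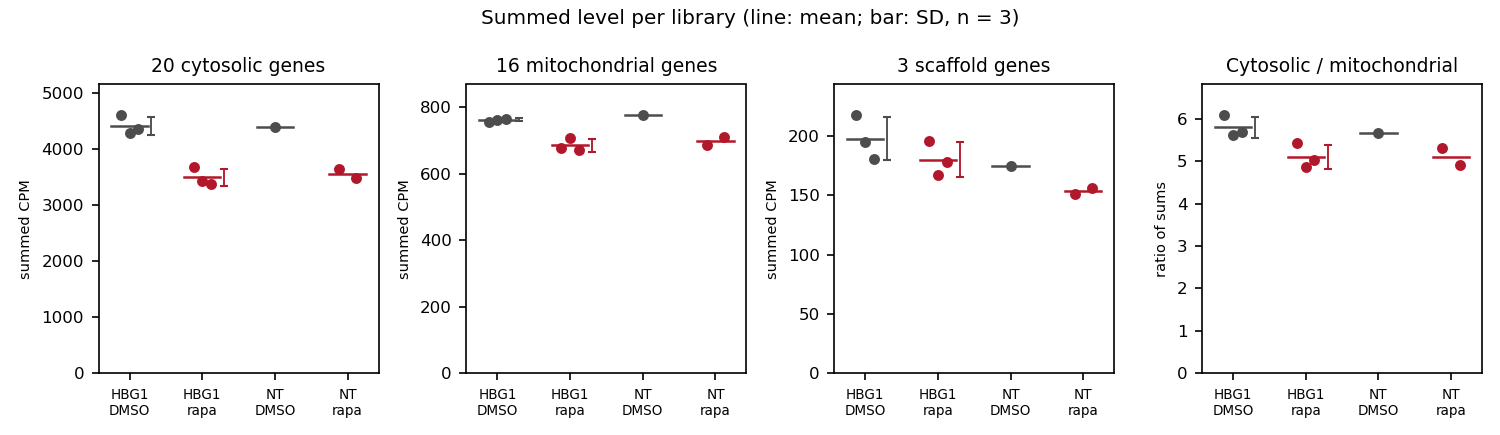
Summed TMM-scaled CPM of the 20 cytosolic, 16 mitochondrial and 3 scaffold genes, and the ratio of the first 2 sums, in each library by group (points are libraries, lines are means, bars are SD where n = 3). The cytosolic sum is 3374 to 3669 CPM with rapamycin and 4280 to 4594 CPM with DMSO among the HBG1 sgRNA libraries, and the scaffold sums of these groups overlap.

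Enzymes for the same amino acid could be paired across the compartments in 17 combinations, with EPRS, FARSA and FARSB each counted with the enzymes they match. The cytosolic fold change was the more negative in 11 of the 17. The widest gaps were those of WARS and WARS2 (-0.72 and 0.08), YARS and YARS2 (-0.82 and -0.20) and CARS and CARS2 (-0.57 and -0.05). The ratio of WARS to WARS2 CPM went from 6.94 ± 0.939 with DMSO to 3.93 ± 0.191 with rapamycin, and that of YARS to YARS2 from 7.21 ± 0.296 to 4.67 ± 0.325 (SD, n = 3 each). The methionine and leucine pairs went the other way by the most, with MARS at -0.48 and MARS2 at -0.70, and LARS at -0.03 and LARS2 at -0.22. EPRS with EARS2 and NARS with NARS2 (0.08 each), FARSA with FARS2 (0.03) and FARSB with FARS2 (0.007) also did, by these differences. With the non-targeting sgRNA the methionine pair was reversed, with MARS at -0.53 and MARS2 at -0.28. For methionine the ratio of MARS to MARS2 was 9.98 ± 1.44 with DMSO and 11.5 ± 0.553 with rapamycin, and these groups overlapped. The ratio of LARS to LARS2 was 4.40 ± 0.567 and 5.05 ± 0.999, also with overlap.

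**Figure D4:**
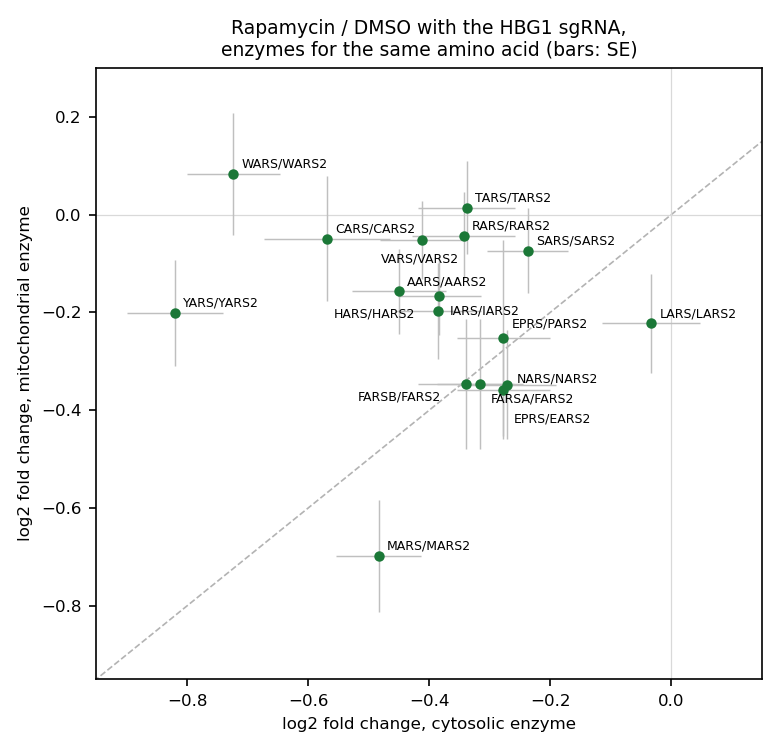
Log2 fold change of rapamycin over DMSO with the HBG1 sgRNA for each mitochondrial enzyme (vertical) against the cytosolic enzyme for the same amino acid (horizontal), with SE bars and a dashed line of equal change. Of the 17 pairs, 11 lie above the line, where the cytosolic enzyme has the more negative value. The methionine and leucine pairs lie farthest below it, and EPRS/EARS2, NARS/NARS2, FARSA/FARS2 and FARSB/FARS2 lie just below it.

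Most cytosolic genes stood at higher levels per length than most mitochondrial genes. Per kb of exon, the cytosolic genes had a median of 42.4 CPM with DMSO, from 7.54 for CARS to 91.7 for VARS. The mitochondrial genes had a median of 8.56 CPM per kb, from 2.64 for CARS2 to 48.5 for IARS2, and the scaffold genes 21.2 to 32.3 CPM per kb. With the longest transcript as the length, the medians were 62.5, 11.6 and 48.4 CPM per kb for cytosolic, mitochondrial and scaffold genes. By exon length IARS2 was the 1 mitochondrial gene above the cytosolic median, and by the longest transcript, at 56.8 CPM per kb, it was below it.

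The cytosolic genes were also split by features other than compartment. In the same test 4.05% of all genes and 8.08% of the more abundant ones were called lower. These splits share genes with each other and rest on few genes, and the differences between their parts were not tested. Of the 12 enzymes outside the multi-synthetase complex 11 were called lower, with a median of -0.40, and of the 8 complex enzymes (EPRS, IARS, LARS, MARS, QARS, RARS, KARS and DARS) 4 were called lower, with a median of -0.22. The complex enzymes not called were LARS, QARS, KARS and DARS, and NARS was the one not called outside the complex. Enzymes of class I (9 genes, median -0.41) and class II (10 genes, median -0.33) had 7 called lower each. Of the 12 cytosolic genes commonly described as ATF4 targets 10 were called lower, with a median of -0.42, and of the 8 others 5, with a median of -0.33. LARS and NARS were the listed genes not called. The TGATGNAA core was present in 6 of the 13 called cytosolic genes with a promoter window and in 1 of the 3 not called. All 7 genes with it are on the ATF4 list, a list drawn from knowledge of such elements. EPRS, SARS and WARS are also on that list and were called lower, and their windows held no core.

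The comparison of rapamycin with DMSO was repeated with the non-targeting guide, which shares no library with the HBG1 sgRNA comparison. With 1 DMSO library it was not tested. The log2 fold change was below 0 for 17 of 20 cytosolic, 13 of 16 mitochondrial and 3 of 3 scaffold genes, where 46.7% of all genes tested and 55.5% of the more abundant ones were below 0. The medians were -0.35, -0.22 and -0.17, against 0.03 for all genes tested. YARS was at 206 CPM with DMSO and at 122 and 116 CPM with rapamycin (-0.79), and WARS at 145 CPM and at 88.1 and 87.5 CPM (-0.73). All 17 genes called with the HBG1 sgRNA were below 0 with the non-targeting sgRNA, from -0.79 to -0.11. QARS was again above 0, at 155 CPM with DMSO and 183 and 180 CPM with rapamycin (0.23), and LARS and DARS stood at 0.00 and 0.08. Across the 39 genes the 2 sets of fold changes had a Pearson's r of 0.821, with 0.945 over the cytosolic and 0.502 over the mitochondrial genes, given as a description. The cytosolic sum changed by -19.0% and the mitochondrial sum by -9.98%, and the cytosolic enzyme had the more negative value in 14 of the 17 pairs.

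Whether the rapamycin difference itself differed between guides was tested as an interaction. One arm of it is the single non-targeting DMSO library, whose spread was assumed to be that of the other groups. Of the 39 genes 0 were called by edgeR and 0 had an unadjusted p under 0.05, where 0.00422% of all genes were called and 2.86% had such a p, and DESeq2 and limma voom also called 0. The interactions ran from -0.42 to 0.28. MARS2 was at the low end, with -0.70 for the HBG1 sgRNA and -0.28 for the non-targeting sgRNA, where it stood at 20.3 CPM with DMSO and at 16.4 and 17.01 CPM with rapamycin. Its difference of -0.42 (SE 0.207) had an unadjusted p of 0.0617 and an adjusted p of 1.00 in edgeR's test. For YARS and WARS the interactions were -0.03 (SE 0.143) and 0.00 (SE 0.137). These SE values show how wide a difference between guides could have gone uncalled.

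Between guides under rapamycin alone, 0 of the 39 genes were called by edgeR, where 0.0296% of all genes were, and DESeq2 and limma voom also called 0. Differences ran from -0.21 to 0.38, and 2 genes had an unadjusted p under 0.05, where 6.27% of all genes did. These were the scaffold genes EEF1E1, at 0.38 (p 0.0026), and AIMP1, at 0.26 (p 0.0317). Under rapamycin EEF1E1 stood at 60.8, 49.1 and 53.6 CPM with the HBG1 sgRNA and at 40.8 and 42.9 CPM with the non-targeting sgRNA, with no overlap. Its single non-targeting DMSO library, at 52.8 CPM, was also below the 3 HBG1 sgRNA DMSO libraries. Its adjusted p was 0.773, and a share of 2 in 39 genes at an unadjusted p under 0.05 is not above that of all genes.

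Of 12 other genes of tRNA charging 1 was called lower and 0 higher, with a median of -0.06. This share is close to the 8.08% called lower among the more abundant genes. The called gene was XPOT, which exports tRNA from the nucleus, at 198 ± 9.13 CPM with DMSO and 159 ± 6.68 CPM with rapamycin (SD, n = 3 each), a log2 fold change of -0.31 (adjusted p 0.0146) and of -0.31 with the non-targeting sgRNA. Its call was lost without DMSO replicate 2 (0.0646), DMSO replicate 3 (0.0769) or rapamycin replicate 3 (0.0762). With the replicate block AARSD1, an alanyl-tRNA editing gene (-0.31, adjusted p 0.0303), and PTRH2, a peptidyl-tRNA hydrolase (-0.23, adjusted p 0.0181), were also called lower, where the block called 9.62% of all genes lower. GATB, GATC and QRSL1, the subunits that turn glutamate on the mitochondrial glutamine tRNA into glutamine, were at -0.03, -0.17 and -0.11 and not called, and GATB was at 0.01 with upper quartile scaling.

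Of the 8 genes of uncharged tRNA sensing and the ATF4 arm, 4 were called lower and 0 higher, with a median of -0.43. In the same test 4.05% of all genes and 8.08% of the more abundant ones were called lower. ATF4 itself stood at 272, 237 and 243 CPM with DMSO and at 230, 166 and 185 CPM with rapamycin, a log2 difference of -0.37 (SE 0.0988, adjusted p 0.0316). Its targets ASNS (-0.82, adjusted p 0.00182), TRIB3 (-0.80, adjusted p 0.000285) and CHAC1 (-1.56, adjusted p 0.0183) were also called lower. CHAC1 levels were low, at 3.56, 3.00 and 3.10 CPM with DMSO and 1.91, 0.760 and 0.682 CPM with rapamycin. Its lowest count in any library was 16. The call of ATF4 was lost without any DMSO library (0.0894, 0.0681 and 0.0738 for replicates 1, 2 and 3), rapamycin replicate 2 (0.102) or 3 (0.135), or either non-targeting rapamycin library (0.0540 and 0.0539). ASNS and TRIB3 kept their calls under all 20 alternatives. CHAC1 had 19 alternatives, and its call was lost without DMSO replicate 2 (0.0567) or 3 (0.0533) or rapamycin replicate 2 (0.0672) or 3 (0.0986). EIF2AK4, which encodes the kinase GCN2, was at -0.19 and not called (adjusted p 0.287). With the replicate block DDIT3 (-0.50, adjusted p 0.00151) and GCN1 (-0.25, adjusted p 0.00762) passed as lower and IMPACT, an inhibitor of GCN2 activation, as higher (0.50, adjusted p 0.0218), where 9.62% of all genes were called lower and 7.43% higher. The TGATGNAA core was found in the promoter windows of ASNS and CHAC1, and not in those of TRIB3, DDIT3, ATF4, EIF2AK4, GCN1 and IMPACT. RNA levels do not show the protein level or activity of ATF4 or GCN2.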

How the data were processed

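The authors deposited unnormalized counts of reads per gene, with Ensembl identifiers and 1 column per library. The submitters' processing notes name STAR 2.7.3a, featureCounts of Subread 2.0.0, R 4.1.2, limma 3.34.9 and edgeR 3.24.0 and the build GRCh38, without roles. The annotation release, strand setting and treatment of multiply mapped reads are not given in the sources used here. GENCODE 29 gave symbols and positions to 58039 of 58347 genes.

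The counts entered edgeR 4.0.16 under R 4.3.3 (filterByExpr at minimum count 10, TMM factors 0.977 to 1.02, glmQLFit and glmQLFTest with 1 mean per group over all 9 libraries). DESeq2 1.42.0, limma 3.58.1 voom, other scalings and filters, and fits without single libraries were alternatives. The procedure was run on simulated counts with known fold changes put in. These counts had no shift shared by the replicate 1 libraries, so they cannot show how the fit handles that spread. Deviations from the group means were correlated between DMSO and rapamycin libraries with the HBG1 sgRNA over 11498 genes. Libraries numbered 1, 2 and 3 gave 0.553, 0.278 and 0.231 with their own number, where the pairing limit was 0.1. Across numbers 2 and 3 the values were 0.194 (DMSO 2 with rapamycin 3) and 0.258 (DMSO 3 with rapamycin 2). Number 1 with any other number gave -0.407 to -0.324. These values set replicate 1 apart but do not show that numbers 2 and 3 mark separate pairs. The main fit has no block. Under rapamycin the numbers did not pair libraries across guides (-0.073).

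The 39 genes and the other lists were chosen with earlier results of these data known. Genes with values per library are the 7 cytosolic and 4 mitochondrial genes with the largest absolute log2 fold change, called genes first, the scaffold genes, HARS and HARS2, with LARS, DARS, QARS and ATF4 added after their values were seen. Some marker genes are not reported here.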

Additional observations from a re-analysis of the deposited data

How the results depend on the processing

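Over the alternatives, the 15 cytosolic, 2 mitochondrial and 0 scaffold calls moved as follows. Cytosolic calls were 13 with upper quartile scaling and with only the contrast's libraries (SARS and EPRS lost), 14 with library totals (SARS lost), 16 with DESeq2 and limma voom, and 17 with the additive model, where KARS passed (0.0473). Mitochondrial calls were 1 with upper quartile scaling, with library totals only and with only the contrast's libraries. In these 3 fits fewer of all genes were called than the 1609 of the main fit. More of all genes were called with DESeq2, limma voom and the additive model. The cytosolic counts thus moved in the direction of all genes, and these changes do not set the synthetases apart. All-gene calls also rose with no filter and with minimum count 50, where the cytosolic count did not change. Scaffold calls were 1 (EEF1E1) with no filter, DESeq2, limma voom, the additive model over both guides, the replicate block and the replicate block without pair 1, the last chosen after seeing the data. Leaving out 1 library at a time, calls ranged from 10 to 18 for all 39 genes (10 without rapamycin replicate 3, 11 without DMSO replicate 1, both with the HBG1 sgRNA), from 9 to 15 for cytosolic, from 1 to 2 for mitochondrial and from 0 to 1 for scaffold genes. The cytosolic minus mitochondrial median ranged from -0.23 to -0.14 and was -0.20 with the replicate block without pair 1. Calls between guides and in the interaction were 0 throughout, also with a replicate block within each guide, chosen after seeing the data. Non-targeting values below 0 numbered 33 to 35. The interaction could not be fitted without the single non-targeting DMSO library.

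With the replicate block on the 6 HBG1 sgRNA libraries, 20 genes were called, 16 of them cytosolic, 3 mitochondrial and 1 scaffold. NARS, NARS2 and EEF1E1 were gained, and the block changed no other call among the 39 genes. Calls over all genes went from 1609 to 3441.

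Signs turned only for genes that were not called. With upper quartile scaling DARS was at 0.033 and LARS at 0.0056. DARS was also at 0.013 (library totals), 0.0095 (minimum count 50), 0.0017 (contrast's libraries), 0.0018 (replicate block) and 0.021 (additive model). TARS2 was at -0.0064 (additive model). Leaving out 1 library at a time, the log2 fold change ranged from -0.068 to 0.055 for DARS, from -0.11 to 0.021 for LARS, from -0.16 to 0.033 for CARS2, from -0.074 to 0.080 for TARS2, from -0.13 to 0.044 for AIMP1 and from -0.11 to 0.00020 for AIMP2. GATB was at 0.013 with upper quartile scaling and ranged from -0.063 to 0.040 without single libraries. Depth limits the mitochondrial genes most, where SE reached 0.200 for PARS2.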
